A study of Mus musculus with 12 samples.

Results

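The genes described here are 4 connexins (Gja1, Gja4, Gja5 and Gjc1) and 6 cadherins (Cdh2, Cdh4, Cdh5, Cdh6, Cdh11 and Cdh13), a set of 10 chosen by name from the 47729 genes counted. Connexins are the subunits of gap junctions, the channels that let ions and small molecules pass between neighbouring cells. Which connexins a cell makes sets which neighbours it can couple to and how its channels conduct. Cadherins are calcium-dependent adhesion proteins that bind the same or a related cadherin on the next cell, and most are tied to the actin cytoskeleton through catenins. In the vessel wall, connexins couple endothelial, smooth muscle and mural cells, and in the uterus the connexin of Gja1 is the main gap junction protein of stroma and myometrium.

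RNA was sequenced from mesenchymal cells that had been sorted from the uteri of healthy cycling female Pdgfrb-BAC-eGFP mice, in which a bacterial artificial chromosome places green fluorescent protein under control of Pdgfrb sequences. All libraries come from this strain. GFPtotal cells (6 libraries, titled Naive) are the whole GFP-positive population, and GFPlow cells (6 libraries, titled Stromal and also called GFPdim) are its dim part, the stromal fibroblasts. The GFP-bright cells are perivascular and were not sequenced alone, so every GFPtotal library also holds GFPlow cells, in an unstated proportion. Age and stage of the cycle are not stated either. The series names 12 mice, but no label ties a library to a mouse, so each p-value measures only how far single libraries spread, which may be technical. The comparison of GFPtotal with GFPlow asks which transcripts belong to the perivascular cells.

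Total counts were 12631266 to 14950639 in GFPtotal libraries and 14339804 to 18425596 in GFPlow libraries. Some libraries call for care. GFPtotal 3, 4 and 5 lay apart from all others on the first principal component of log2 CPM, scoring 102 to 107, whereas GFPtotal 1, 2 and 6 scored −3.82 to 6.66 and the GFPlow libraries −64.6 to −31.1. Mitochondrial genes held 32.4 to 40.5% of their counts, while GFPtotal 1, 2 and 6 had 45.3 to 49.0% and GFPlow libraries 35.1 to 45.7%. On the second principal component GFPlow 5 scored −86.6, against −22.1 to 4.45 for the other GFPlow libraries and −26.2 to 51.9 in GFPtotal. GFPlow 5 also had the fewest genes with a count, 18228. The header of the file deposited for GFPlow 6 gives the library the name N8, whereas its title says S6. It was kept in the group of its title. Pdgfrb itself was higher in GFPtotal, averaging 114 ± 36.0 CPM, against 65.1 ± 15.0 CPM in GFPlow (SD, n = 6 per population). Its log2 fold change of 0.81 had an SE of 0.21 and an adjusted p of 0.0305, a call that ended without GFPtotal 3, 4 and 5 (0.64, adjusted p = 0.207), with the library total alone as scaling (0.79, adjusted p = 0.0814) and on leaving out any 1 of GFPtotal 4, 5 or 6 or GFPlow 1, 2, 3 or 5 (adjusted p = 0.0576 to 0.0789). CPM are counts normalised to library size after scaling by trimmed mean of M-values (TMM), and a gene is called where edgeR's quasi-likelihood test gave an adjusted p below 0.05.

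Pericyte and smooth muscle markers were higher in GFPtotal, which holds the perivascular cells. No tested fibroblast marker was called higher in GFPlow, the population labelled stromal, or in GFPtotal. The part of these markers in the results below was not tested. Of all 14523 genes tested, 4.55% were called higher in GFPtotal. Pericyte markers (10 genes, 6 of 7 tested called higher) summed to 966 to 1651 CPM in GFPtotal libraries, against 65.4 to 119 CPM in GFPlow libraries, and smooth muscle markers (10 genes, 4 of 8 tested called higher) to 454 to 754 CPM, against 299 to 412 CPM (exact two-sided permutation test, p = 0.00216 each, the smallest possible). Within GFPtotal both sums were higher in libraries 3, 4 and 5 (1309 to 1651 CPM and 621 to 754 CPM) than in libraries 1, 2 and 6 (966 to 1265 CPM and 454 to 493 CPM). Most of the smooth muscle sum in GFPlow was Synpo2, averaging 294 CPM, against 299 CPM in GFPtotal. Its log2 fold change was 0.03 (edgeR adjusted p = 0.947), and that of Smtn was −0.30 (edgeR adjusted p = 0.566). Fibroblast markers (8 genes, 0 of 7 tested called) had a higher mean sum in GFPtotal, mostly from Col1a1 and Col1a2. Those 2 had log2 fold changes of 0.82 and 0.56 (edgeR adjusted p = 0.0689 and 0.103). Dcn, Pdgfra, Lum and Dpt had 0.39, 0.30, 0.20 and 0.16, while Mfap5 had −0.24 (edgeR adjusted p = 0.267 to 0.663). GFPtotal libraries 3, 4 and 5, with sums of 13916 to 16246 CPM, lay within the GFPlow range of 9378 to 16456 CPM. Libraries 1, 2 and 6 lay above it, at 23920 to 28991 CPM. The exact p was 0.0238 for GFPtotal against GFPlow, and up to 0.0693 without any 1 of GFPlow 1, 2, 3 or 4. Epithelial markers (10 genes) summed to 9.43 to 37.0 CPM in GFPtotal 3, 4 and 5 and to 0.445 to 5.26 CPM in libraries 1, 2 and 6, against 5.14 to 16.9 CPM in GFPlow (exact p = 0.857). Ltf was most of the mean sum in GFPtotal, averaging 8.55 CPM with a highest value of 31.7 CPM, against 4.09 CPM in GFPlow. The 3 tested markers differed in direction and none was called. Their log2 fold changes were 1.07 for Ltf, −0.93 for Epcam and −0.98 for Krt19 (edgeR adjusted p = 0.591, 0.454 and 0.583). Leukocyte markers (9 genes) stayed at or below 18.2 CPM in GFPtotal and 15.7 CPM in GFPlow (exact p = 0.946), and Schwann markers (4 genes) at or below 4.06 and 3.07 CPM (exact p = 0.723). Mesothelial markers (5 genes) summed to 43.2 to 79.6 CPM in GFPtotal, against 71.6 to 101 CPM in GFPlow (exact p = 0.0108), almost all of it Wt1, which uterine stroma also expresses, while Msln and Upk3b had no count.

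Both promoters below belong to connexins described first, the abundant one that was lower in GFPtotal and one with no count in any GFPlow library. They are the 250 bases before the RefSeq start on GRCm38.p6, read on the gene's strand. Capitals mark matches to the motifs searched. The Gja1 window is chr10:56377050-56377299, plus strand. The Gja4 window is chr4:127314040-127314289, minus strand.
Gja1: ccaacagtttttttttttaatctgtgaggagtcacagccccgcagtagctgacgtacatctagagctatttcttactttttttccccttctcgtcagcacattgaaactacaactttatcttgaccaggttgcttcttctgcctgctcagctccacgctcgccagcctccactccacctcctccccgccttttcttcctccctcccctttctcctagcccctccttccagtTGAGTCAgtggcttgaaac
Gja4: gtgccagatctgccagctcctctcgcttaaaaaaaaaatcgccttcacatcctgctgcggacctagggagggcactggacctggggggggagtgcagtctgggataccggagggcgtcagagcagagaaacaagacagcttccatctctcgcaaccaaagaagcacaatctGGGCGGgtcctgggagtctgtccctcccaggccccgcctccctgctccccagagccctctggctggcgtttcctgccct
The motifs were the TATA box (TATAAA), the GC box (GGGCGG), the core bound by RBPJ, the DNA-binding partner of Notch (TGGGAA), the AP-1 site (TGAGTCA) and the CArG box of serum response factor, each on both strands. The Gja1 window held an AP-1 site from 19 to 13 bases before the start, a motif found in 4.46% of the 32851 windows of the table. The Gja4 window held a GC box from 79 to 74 bases before the start, a motif found in 32.7% of them. The TATA box was found in 12.4%, the RBPJ core in 21.6% and the CArG box in 1.47% of windows. The AP-1 site reads TGACTCA on the opposite strand, and the other motifs searched had no match in these windows. The base composition was 50.0% G and C for Gja1 and 61.2% for Gja4. The table held 4 of the 10 genes, and of the other windows that of Gja5 held 1 GC box and that of Cdh6 an overlapping pair.

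Of the 10 genes, 6 passed the filter on low counts and were tested. A single one was higher in GFPtotal (Gjc1), 2 were lower (Gja1 and Cdh5), and 3 were not called (Cdh2, Cdh11 and Cdh13). Among all 14523 genes tested, 5.41% were called, 4.55% higher and 0.854% lower. Gja4, Gja5, Cdh4 and Cdh6 had too few counts for the filter and are given by their counts. The ranges of GFPtotal and GFPlow overlapped for each of the 10 genes. The share of all genes tested without overlap is not given here. Neither this count nor later mentions of no overlap can therefore be set against it. In such bulk samples, fewer cells of a type and less RNA per cell cannot be told apart. None of the 3 calls held without GFPtotal 3, 4 and 5, which leaves 3 GFPtotal libraries and calls 1.88% of 15703 genes tested.

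**Figure D1:**
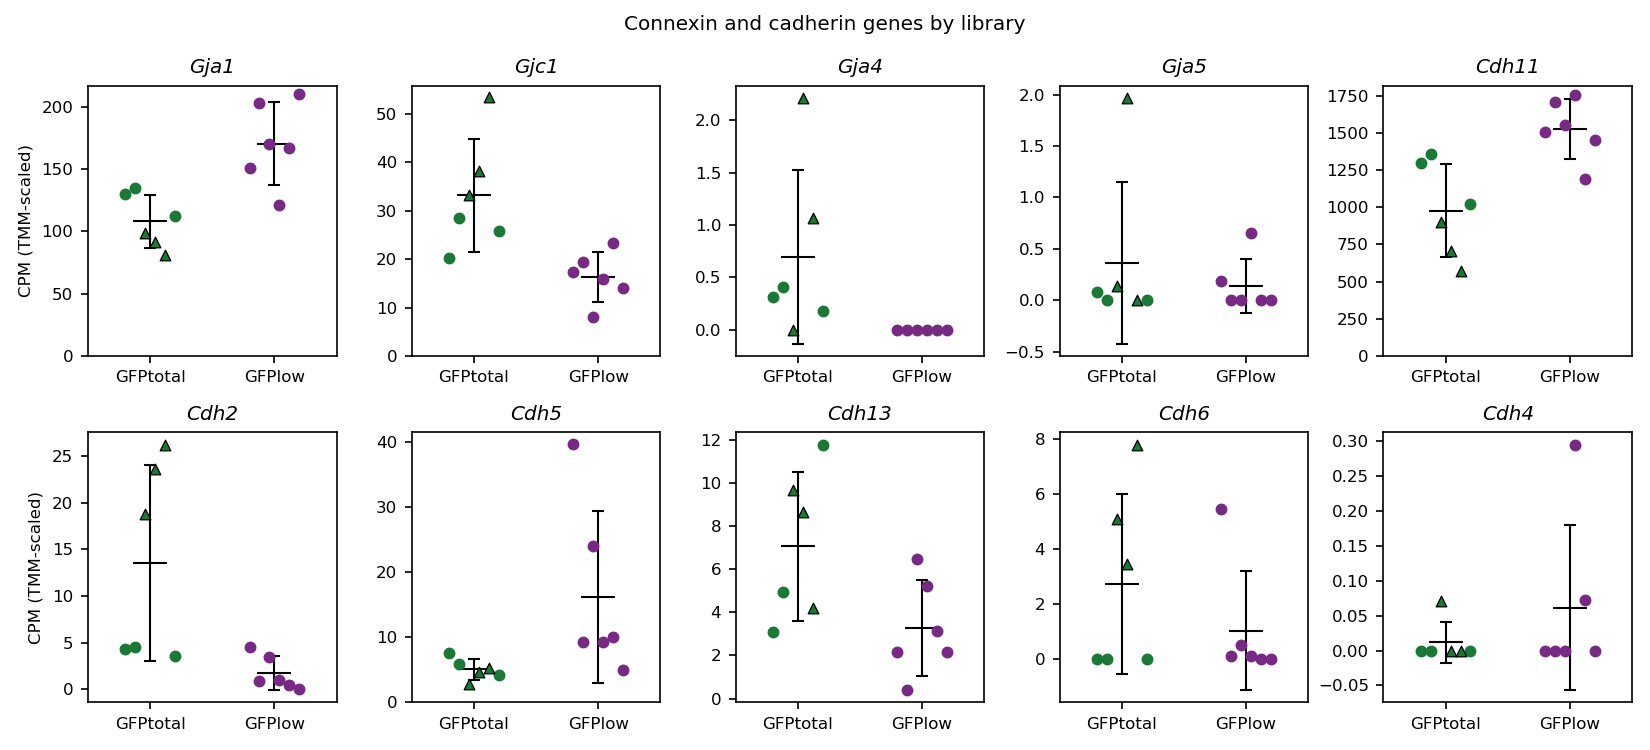
CPM of the 10 genes in each library, with GFPtotal left and GFPlow right in each panel; triangles are GFPtotal 3, 4 and 5, and bars are the mean ± SD of 6 libraries. Gja1 and Cdh11 sit lower in GFPtotal and Gjc1 higher, while Cdh2 stands at 18.8 to 26.2 CPM in the 3 triangles and at 3.56 to 4.53 CPM in the other GFPtotal libraries.

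Gja1 encodes Cx43, the most widely made connexin, and lies on chromosome 10 (ENSMUSG00000050953, 56377300 to 56390419, GRCm38, plus strand). As in the usual connexin gene, its coding sequence lies in 1 exon. Its lowest, median and highest values were 81.4, 106 and 134 CPM in GFPtotal and 121, 168 and 210 CPM in GFPlow. The GFPlow libraries were all higher than 4 of the GFPtotal libraries, and the only overlap was that GFPtotal 1 and 2 exceeded GFPlow 4. Gja1 fell to a mean of 108 ± 21.3 CPM in GFPtotal, against 170 ± 33.2 CPM in GFPlow (SD, n = 6 per population). The log2 fold change was −0.66 (SE 0.17), with an adjusted p of 0.0306. Within GFPtotal it was 81.4 to 98.6 CPM in libraries 3, 4 and 5 and 113 to 134 CPM in libraries 1, 2 and 6. The difference was −0.46 without libraries 3, 4 and 5 (adjusted p = 0.272). The call was also lost on leaving out any 1 of GFPtotal 3, 4 or 5 or GFPlow 2, 3 or 6 (adjusted p = 0.0616 to 0.0795; 0.0751 without GFPlow 6, whose header differs).

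Gjc1 encodes Cx45, a connexin of pacemaker tissue, vascular smooth muscle and pericytes, and lies on chromosome 11 (ENSMUSG00000034520, 102799579 to 102819700, minus strand). Its lowest, median and highest values were 20.3, 30.8 and 53.5 CPM in GFPtotal and 8.05, 16.6 and 23.3 CPM in GFPlow. The only overlap was between GFPtotal 1 and GFPlow 5, and the 3 highest libraries were GFPtotal 3, 4 and 5. Gjc1 rose to a mean of 33.2 ± 11.7 CPM in GFPtotal, against 16.3 ± 5.15 CPM in GFPlow (SD, n = 6 per population). The log2 fold change was 1.02 (SE 0.27), with an adjusted p of 0.0370. It was 0.58 without GFPtotal 3, 4 and 5 (adjusted p = 0.496), and the call was lost without any 1 of these 3 or of GFPlow 1, 2, 3, 4 or 6 (adjusted p = 0.0544 to 0.103; 0.0801 without GFPlow 6). Scaling by the library total alone also ended the call (adjusted p = 0.0709).

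Gja4 encodes Cx37, known from arterial endothelium and also made in mural cells; it lies on chromosome 4 (ENSMUSG00000050234, 127311421 to 127314039, minus strand). It had 4, 5, 0, 36, 16 and 2 counts in GFPtotal 1 to 6 and 0 in each of the 6 GFPlow libraries. Thus 5 of 6 GFPtotal libraries held counts, and GFPtotal 4 and 5 held most of the 63. With counts pooled over each population and a floor of 3 counts over the GFPlow group, Gja4 was at least 25.3-fold higher in GFPtotal. This bound was 13.5-fold without GFPtotal 4 and 9.89-fold without GFPtotal 3, 4 and 5, settings chosen after the counts were seen. The floor limits the GFPlow side alone. The GFPtotal counts were taken as they stand, so their spread between libraries is not covered. Gja4 was not tested after the filter. With no filter on low counts the adjusted p over all genes was 0.0306. Gja5, which encodes Cx40 of arterial endothelium and the cardiac conduction system, had 35 counts in GFPtotal, of which GFPtotal 4 held 32, and 14 in GFPlow, of which GFPlow 4 held 11 (adjusted p = 0.662 with no filter). It lies on chromosome 3 (ENSMUSG00000057123, 96904693 to 97077416, plus strand). Exonic bases of Gja5 are shared with the antisense gene Gpr89 over 2.87% of their length, and the counting did not use strand.

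Set against each other per kilobase of exon, the connexins can be given as shares of the family. Gja1 made up 81.4% ± 7.72 of all connexin counts per kilobase in GFPtotal and 92.8% ± 2.27 in GFPlow (SD, n = 6 each, 20 connexin genes). Gjc1 made up 16.2% ± 7.14 in GFPtotal and 5.68% ± 1.98 in GFPlow. The ratio of Gja1 to Gjc1 per kilobase, which does not depend on library scaling, was 2.45 to 10.3 in GFPtotal (median 5.91) and 11.5 to 34 in GFPlow (median 15.5). Those ranges did not overlap. Gja1 and Gjc1 were called in opposite directions in these same libraries, so the separation of their ratio is no independent result. The lowest ratios were in GFPtotal 3, 4 and 5, and the ratios of GFPtotal 1, 2 and 6 were 7.05 to 10.3. These shares and ratios are descriptions and were not tested.

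**Figure D2:**
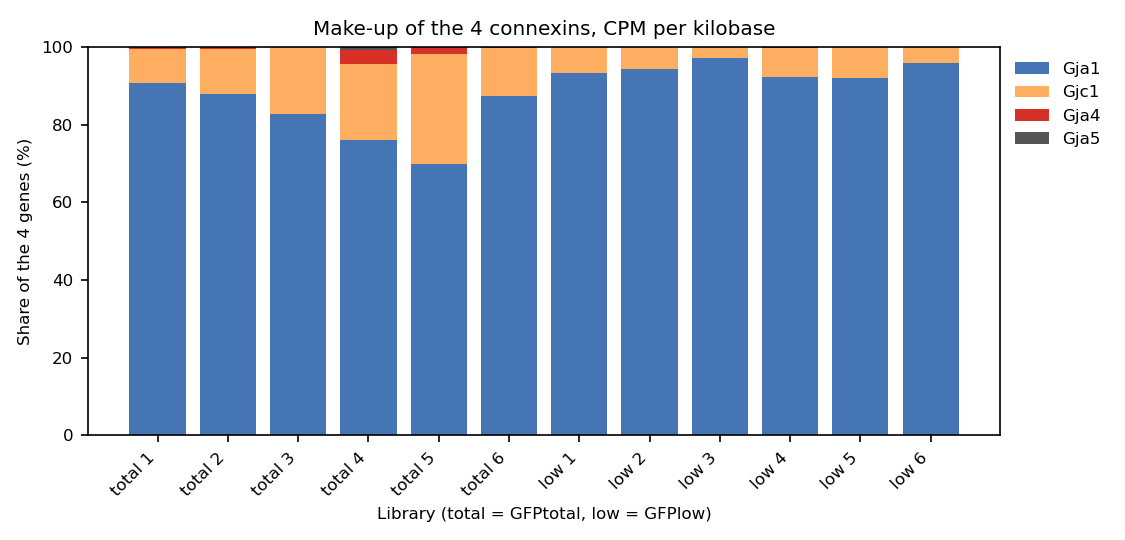
Share of Gja1, Gjc1, Gja4 and Gja5 in the sum of these 4 genes, from CPM per kilobase of exon, 1 bar per library with GFPtotal left of GFPlow. The Gja1 part of the bar is shortest in GFPtotal 5, and Gja4 shows only in GFPtotal bars.

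Among cadherins, Cdh11 was the most abundant per kilobase of exon in both populations. Cdh11 is the cadherin of mesenchymal and synovial fibroblasts. It lies on chromosome 8 (ENSMUSG00000031673, 102632995 to 102785111, minus strand). Its lowest, median and highest values were 569, 962 and 1356 CPM in GFPtotal and 1189, 1528 and 1755 CPM in GFPlow. GFPtotal 1 and 2 lay above the lowest GFPlow library and the other GFPtotal libraries below all of GFPlow. Cdh11 averaged 975 ± 314 CPM in GFPtotal, against 1526 ± 202 CPM in GFPlow (SD, n = 6 per population). The log2 fold change of −0.65 (SE 0.19) did not pass the test (adjusted p = 0.0623). Like Gja1, it stood lower in GFPtotal 3, 4 and 5 (569 to 900 CPM) than in GFPtotal 1, 2 and 6 (1023 to 1356 CPM). The difference passed with DESeq2 (adjusted p = 0.0367), limma-voom (0.0260), no low-count filter (0.0496) and the library total alone as scaling (0.00725), and without GFPtotal 1 or 2 (0.0343 and 0.0255). Without GFPtotal 3, 4 and 5 it was −0.34 (adjusted p = 0.347).

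Cdh2 encodes N-cadherin, which joins pericytes and endothelial cells at contact points and is common in mesenchyme; it lies on chromosome 18 (ENSMUSG00000024304, 16588877 to 16809246, minus strand). Its lowest, median and highest values were 3.56, 11.7 and 26.2 CPM in GFPtotal and 0, 0.954 and 4.55 CPM in GFPlow. GFPtotal 3, 4 and 5 held 18.8 to 26.2 CPM, and GFPtotal 1, 2 and 6 with 3.56 to 4.53 CPM lay within the range of GFPlow. The log2 fold change was 2.98 (SE 0.87), the largest among the 6 tested, and did not pass the test (adjusted p = 0.0624). It passed with DESeq2 (2.95, adjusted p = 0.0192), without GFPtotal 6 (3.17, adjusted p = 0.0482) and without GFPlow 1 (3.55, adjusted p = 0.0397). Without GFPtotal 3, 4 and 5 it was 1.25 (adjusted p = 0.666). The ratio of Cdh11 to Cdh2 per kilobase was 41.5 to 572 in GFPtotal and 632 to 5209 in the 5 GFPlow libraries with a Cdh2 count. Within GFPtotal this ratio was 41.5 to 91.6 in libraries 3, 4 and 5 and 549 to 572 in libraries 1, 2 and 6.

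**Figure D3:**
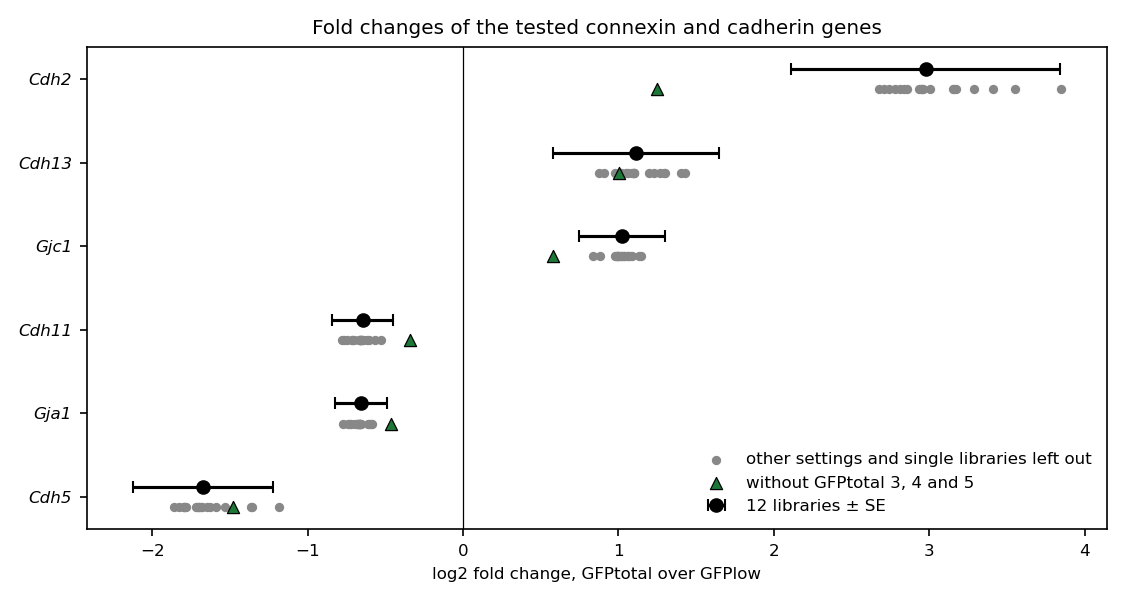
Log2 fold changes of the 6 tested genes, GFPtotal over GFPlow, with the SE of the fit on 12 libraries (black), the same under each other setting and with each library left out (grey), and without GFPtotal 3, 4 and 5 (green triangle). No gene crosses 0 under any setting drawn, and Cdh2 moves most, to 1.25.

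Cdh5 encodes VE-cadherin, the adherens junction protein of endothelium, and lies on chromosome 8 (ENSMUSG00000031871, 104101625 to 104144502, plus strand). Its lowest, median and highest values were 2.86, 4.96 and 7.66 CPM in GFPtotal and 5.05, 9.65 and 39.6 CPM in GFPlow. GFPlow 1 and 3 stood highest, at 39.6 and 24.0 CPM, and GFPlow 6 lay within the range of GFPtotal. Cdh5 fell to a mean of 5.08 ± 1.62 CPM in GFPtotal, against 16.2 ± 13.2 CPM in GFPlow (SD, n = 6 per population). The log2 fold change was −1.67 (SE 0.45), with an adjusted p of 0.0374. Without GFPtotal 3, 4 and 5 the difference was −1.48 (adjusted p = 0.273). The call was also lost without any 1 of GFPtotal 3, 4, 5 or 6 or GFPlow 1 or 3 (adjusted p = 0.0634 to 0.103), and with limma-voom (−1.36, adjusted p = 0.118). Without GFPlow 1 the difference was −1.18, and without GFPlow 6 it was −1.86 and remained called (adjusted p = 0.0202).

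Other endothelial markers were measured beside Cdh5. Their summed level over 12 genes was 32.0 to 64.8 CPM in GFPtotal, against 21.1 to 43.7 CPM in GFPlow (exact two-sided permutation test over 924 assignments, p = 0.0519, n = 6 each; as low as 0.0173 without GFPtotal 1, GFPtotal 2 or GFPlow 5). GFPlow 1, with the highest Cdh5, had the lowest sum. Of the 12 markers, 5 passed the filter, with edgeR adjusted p-values of 0.0562 to 0.581. Cldn5, the main tight junction claudin of endothelium, had no count in any library, the receptor gene Tie1 had 2 counts in GFPtotal and 1 in GFPlow, and the adhesion gene Pecam1 had 66 and 17. Kdr, which encodes the main VEGF receptor, was the most abundant of them in GFPlow, averaging 11.2 CPM in GFPtotal, against 20.8 CPM in GFPlow (log2 fold change −0.89, adjusted p = 0.271). The other 4 tested had positive log2 fold changes that did not pass the test, at 1.71 for Emcn (adjusted p = 0.0562), 1.41 for Ptprb (0.581), 1.39 for Flt1 (0.449) and 1.04 for Tek (0.209). Lymphatic endothelial markers (3 genes) summed to 6.00 to 13.7 CPM in GFPtotal, against 0.728 to 5.03 CPM in GFPlow (exact p = 0.00216, the smallest possible). Most of this sum was Lyve1, averaging 6.47 CPM in GFPtotal, against 2.56 CPM in GFPlow. Lyve1 was the only 1 of the 3 that passed the filter and was not called (log2 fold change 1.33, edgeR adjusted p = 0.206). Prox1 had 156 counts in GFPtotal and 24 in GFPlow, and Flt4 had 13 and 10.

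**Figure D4:**
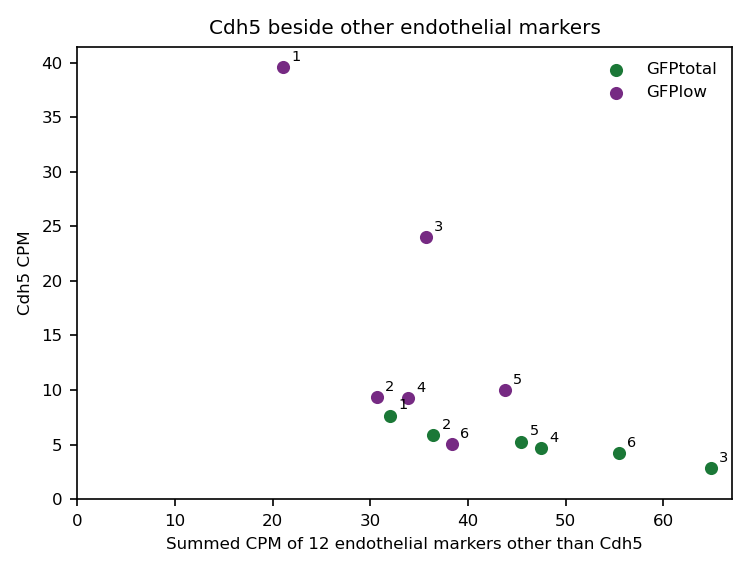
Cdh5 CPM against the summed CPM of 12 other endothelial markers, with each point a library marked by its replicate number. The highest Cdh5 value, 39.6 CPM in GFPlow 1, stands at the lowest marker sum, 21.1 CPM.

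The remaining cadherins were low. Cdh13, a cadherin held in the membrane by a lipid anchor and without a cytoplasmic tail, lies on chromosome 8 (ENSMUSG00000031841, 118283733 to 119324921, plus strand) and had 3.09, 6.80 and 11.8 CPM as its lowest, median and highest values in GFPtotal and 0.396, 2.65 and 6.48 CPM in GFPlow. Its log2 fold change of 1.11 (SE 0.53) did not pass the test (adjusted p = 0.259). Cdh6, a cadherin of kidney and neural crest on chromosome 15 (ENSMUSG00000039385, 13034200 to 13173639, minus strand), had counts of 71, 56 and 117 in GFPtotal 3, 4 and 5 and none in GFPtotal 1, 2 and 6. In GFPlow, 86 of its 98 counts lay in GFPlow 1, which was also the GFPlow library with the most Cdh5 and Cdh2 (adjusted p of Cdh6 = 0.684 with no filter). Cdh4, R-cadherin of retina and muscle on chromosome 2 (ENSMUSG00000000305, 179442431 to 179899373, plus strand), had 1 count in GFPtotal and 6 in GFPlow (adjusted p = 0.482 with no filter).

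Per kilobase of exon, the order of levels began with Cdh11 and Gja1 in both populations. In GFPtotal, Cdh11 stood at 231 ± 74.4, Gja1 at 34.8 ± 6.86 and Gjc1 at 6.64 ± 2.33 CPM per kilobase (SD, n = 6), and the ranges of these neighbours did not overlap. Below them, Cdh2 (1.67 ± 1.31), Cdh5 (1.27 ± 0.407), Cdh6, Cdh13 and Gja4 each overlapped the next. In GFPlow, Cdh11 stood at 362 ± 48.0 and Gja1 at 54.8 ± 10.7 CPM per kilobase, followed by Cdh5 at 4.07 ± 3.30 and Gjc1 at 3.27 ± 1.03, whose ranges overlapped. Cdh11 made up 96.7% ± 2.50 of all cadherin counts per kilobase in GFPtotal and 98.2% ± 1.26 in GFPlow (23 Cdh genes).

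The partners of these proteins were described from 5 lists. Over the 19 other connexins and pannexins, 1 gene passed the filter, the pannexin gene Panx1, which forms channels to the outside of the cell (log2 fold change 1.52, adjusted p = 0.0805; 0.0170 by DESeq2), and 8 had no count in any library. Of the 17 other cadherins, 2 passed the filter and neither was called by any tool run. The E-cadherin gene Cdh1 averaged 3.70 ± 2.73 CPM in GFPtotal, against 3.33 ± 1.59 CPM in GFPlow (log2 fold change 0.16, adjusted p = 0.920), and its direction turned with limma-voom and without GFPtotal 3, 4 and 5. Cdh24 averaged 1.20 ± 0.714 CPM in GFPtotal, against 2.19 ± 1.45 CPM in GFPlow (−0.86, adjusted p = 0.513).

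Catenins and adherens junction partners had 1 of 13 tested members higher and 1 lower, against 4.55% higher and 0.854% lower among all genes tested. Their median log2 fold change was 0.09, against −0.0006 over all genes tested. Ctnna3, the alpha-T-catenin gene best known from heart muscle, where it links cadherins to actin, was the member called higher. Its counts were 32 to 127 in GFPtotal libraries and 1 to 2 in GFPlow libraries, with no overlap. It rose to 5.33 ± 2.34 CPM in GFPtotal, against 0.0932 ± 0.0388 CPM in GFPlow (SD, n = 6 per population), a log2 fold change of 5.73 with an SE of 0.58 (adjusted p = 1.73e-05). The difference was 5.11 without GFPtotal 3, 4 and 5 (adjusted p = 0.00261). Nectin3, an immunoglobulin-type adhesion gene of adherens junctions, fell to 155 ± 50.1 CPM in GFPtotal, against 286 ± 43.7 CPM in GFPlow (−0.89, SE 0.20, adjusted p = 0.0147), also without overlap. Its call was lost without GFPtotal 3, 4 and 5 (−0.55, adjusted p = 0.0962). The common catenin genes Ctnnb1, Ctnna1 and Ctnnd1 had adjusted p-values of 0.565, 0.779 and 0.833 beside log2 fold changes of 0.23, −0.10 and 0.09; they were named after their values were seen.

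Gap junction partners had 1 of 8 tested members higher and 1 lower (median 0.02), against 4.55% and 0.854% of all genes tested. Ccn3, a matricellular gene whose protein binds Cx43, rose to 97.7 ± 91.2 CPM in GFPtotal, against 3.20 ± 1.91 CPM in GFPlow (log2 fold change 4.93, SE 0.88, adjusted p = 0.00750). It held 149 to 205 CPM in GFPtotal 3, 4 and 5, whereas the other GFPtotal libraries held 11.1 to 20.6 CPM. GFPlow libraries held 1.07 to 6.61 CPM, without overlap. Without GFPtotal 3, 4 and 5, Ccn3 differed by 2.31 (adjusted p = 0.0142). With limma-voom it was not called (adjusted p = 0.102). Ubqln4, a ubiquilin gene whose product takes part in turnover of Cx43, fell to 4.36 ± 0.844 CPM in GFPtotal, against 11.4 ± 5.07 CPM in GFPlow (−1.39, SE 0.32, adjusted p = 0.0175), with the call lost without GFPtotal 3, 4 and 5 (−1.26, adjusted p = 0.176). The scaffold gene Tjp1, which binds connexin tails, had a log2 fold change of 0.03; it was named after its value was seen.

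Non-clustered protocadherins and atypical cadherins had 4 of 12 tested members higher and 1 lower (median 0.23). The shares over all genes tested were 4.55% higher and 0.854% lower. Pcdh1, an adhesion gene also made in airway epithelium, rose to 9.80 ± 2.10 CPM in GFPtotal, against 0.782 ± 0.812 CPM in GFPlow, with no overlap (log2 fold change 3.64, SE 0.67, adjusted p = 0.00354; 3.54 and adjusted p = 0.0275 without GFPtotal 3, 4 and 5). The others called higher were Fat4, a giant cadherin of planar polarity and Hippo signalling (3.69, adjusted p = 0.0138), Pcdh19 (1.44, adjusted p = 0.0258) and Pcdh7 (0.54, adjusted p = 0.0336). Celsr3, an atypical cadherin of axon guidance, fell to 0.479 ± 0.187 CPM in GFPtotal, against 2.62 ± 1.61 CPM in GFPlow (−2.43, SE 0.58, adjusted p = 0.0204). Without GFPtotal 3, 4 and 5 the differences of Fat4 (1.89, adjusted p = 0.215), Pcdh19 (adjusted p = 0.241), Pcdh7 (adjusted p = 0.325) and Celsr3 (adjusted p = 0.232) were not called. Pcdh7 also lost its call with the library total alone as scaling (adjusted p = 0.151) and without any 1 of GFPtotal 3, 4 or 5 or GFPlow 2, 3, 4, 5 or 6 (up to 0.118). Pcdh19 lost it without any 1 of GFPtotal 1, 3 or 4 or GFPlow 2, 3 or 6 (up to 0.0781), and Celsr3 without GFPtotal 3 (0.0568) or GFPlow 1 (0.0560), with no low-count filter (0.0618) and with limma-voom (0.0611).

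**Figure D5:**
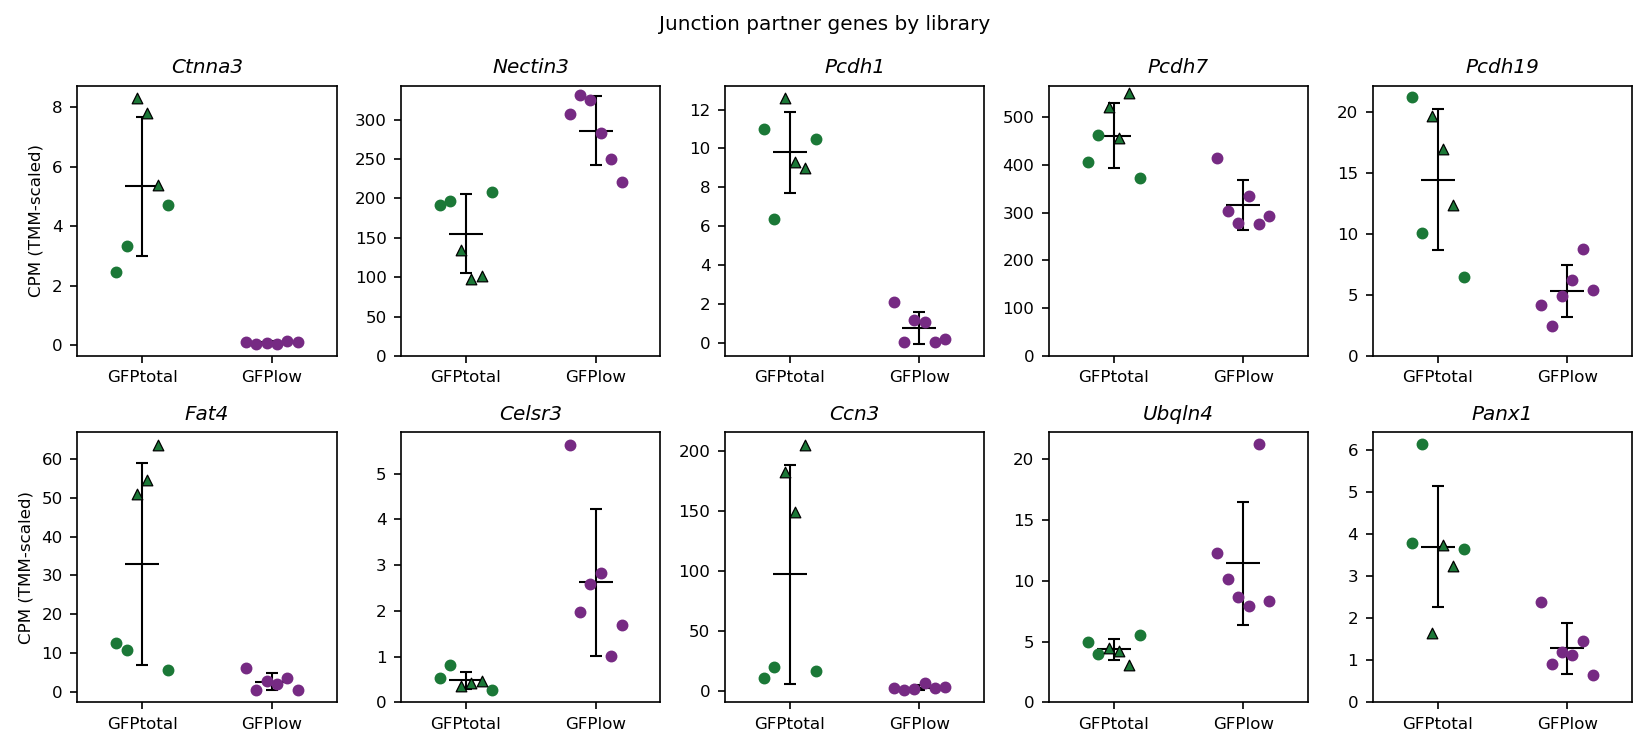
CPM of 10 junction partner genes in each library, GFPtotal left and GFPlow right; triangles are GFPtotal 3, 4 and 5, and bars are the mean ± SD of 6 libraries. Ctnna3, Pcdh1 and Ccn3 are higher in all 6 GFPtotal libraries than in any GFPlow library. Fat4 and Ccn3 stand highest in the 3 triangles.

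The genes whose profile over the 12 libraries was nearest to each called member were found by the root mean square difference of log2 CPM, each gene centred on its own mean, among 11504 candidates. For Gja1 they were the splicing factor gene Hnrnph1 (0.17), the pseudogene Rpl10a-ps1 (0.17) and Zcchc24 (0.18), against a median of 0.72 over candidates. For Gjc1 they were the double-stranded RNA sensor kinase gene Eif2ak2 (0.30), Ip6k2 (0.32) and the stress kinase gene Map3k20 (0.32), against a median of 0.92. For Cdh5 they were Gli1, a target of hedgehog signalling (0.47), the growth factor gene Bmp7 (0.51) and Ftsj3 (0.55), against a median of 1.17.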

How the data were processed

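The values the authors deposited are unnormalised gene counts from RNA-seq of 12 libraries. They were made with featureCounts 1.6.4, per the file headers, which assigned read pairs to exons of Ensembl 84 genes (GRCm38) at a mapping quality of 10 or more, ignoring strand. Cutadapt and SAMtools appear in the submitters' processing notes. No aligner is named in the sources used here. The series table equalled the single files in 12 of 12 libraries. Symbols came from a table of gene identifiers (47224 of 47729 matched), coding exons from GENCODE M21 and promoters from RefSeq on GRCm38.p6.

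Genes were filtered with filterByExpr, scaled by TMM and compared as GFPtotal minus GFPlow in a quasi-likelihood fit of edgeR 4.0.16 (R 4.3.3; robust, no covariate). The p-values were adjusted by Benjamini-Hochberg over 14523 genes. SE is the fold change divided by the square root of F. The fit was run on simulated counts drawn around a single mean per gene and population. They lacked the split among GFPtotal libraries, so they cannot show how the test behaves under it. DESeq2 1.42.0, limma-voom (limma 3.58.1) and the other settings named in the closing section were alternatives. Log2 CPM used a prior count of 2. Floors cover counting error in GFPlow only, and neither floors nor counts cover the spread between libraries. The 10 genes, the lists and the library set left out were chosen with earlier results of these data known.

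All 10 genes and Pdgfrb were named; in each partner list, up to 6 called genes of largest change were named, or the 2 most abundant tested, with the 3 nearest profiles for each called member, leaving out predicted genes and other members. Reads shared between related family members were not examined.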

Additional observations from a re-analysis of the deposited data

Results flagged for a closer look

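In groups of 6 libraries, a library's gap to the nearest one was divided by the group's range. It was taken as far from the others where this exceeded Dixon's critical value. Chance gives that in about 1 of 20 groups of normally distributed values, a rate that does not apply to groups of mostly 0 counts. In all, 6 of 44 gene and group pairs met the rule. Most rest on few counts. Gja5 stood at 1.96 CPM in GFPtotal 4 (32 counts), with the next library at 0.143 CPM, and at 0.649 CPM in GFPlow 4 (11 counts), with the next at 0.190 CPM. Cdh4 stood at 0.0715 CPM in GFPtotal 3, where it had its only GFPtotal count, and at 0.295 CPM in GFPlow 4 (5 counts). Cdh6 stood at 5.44 CPM in GFPlow 1 (86 counts), with the next GFPlow library at 0.503 CPM. Ubqln4 stood at 21.2 CPM in GFPlow 5, with the next GFPlow library at 12.3 CPM.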

How the results depend on the processing

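The 6 tested members kept their direction under every setting run, and neither size factors of the RLE type nor leaving out mitochondrial genes changed a member's call. By DESeq2 the count of genes changed was 1381 (1033 higher, 348 lower), against 785 (661 higher, 124 lower) by edgeR; without GFPtotal 3, 4 and 5 it was 295 (245 and 50). Lower genes numbered 257 with the library total alone as scaling and 230 with limma-voom. Leaving out single libraries gave 467 to 970 genes changed, 406 to 791 higher and 61 to 179 lower. Members called higher numbered 0 with total library size only, with the replicate block and without GFPtotal 3, 4 and 5, 2 with no low-count filter and with DESeq2, and 0 to 2 with single libraries left out. Members called lower numbered 1 with the replicate block, 0 without GFPtotal 3, 4 and 5, and 0 to 3 with single libraries left out. Without GFPlow 6, whose file header carries another name, Cdh5 remained called (−1.86, adjusted p = 0.0202), and Gja1 (−0.59, adjusted p = 0.0751) and Gjc1 (0.98, adjusted p = 0.0801) were not.

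With single libraries left out the log2 fold changes were −0.74 to −0.59 for Gja1, 0.84 to 1.15 for Gjc1, −1.86 to −1.18 for Cdh5, 2.68 to 3.55 for Cdh2 and −0.76 to −0.53 for Cdh11. Without GFPtotal 3, 4 and 5 they were −0.46, 0.58 and −1.48 for Gja1, Gjc1 and Cdh5, none called. Gjc1 was not called with total library size only (1.03). Cdh5 was not called with limma-voom (−1.36). Cdh2 was called with DESeq2 (2.95). Cdh11 was called with total library size only (−0.78), no low-count filter (−0.65), DESeq2 (−0.67) and limma-voom (−0.71). The cause was not tested.

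With the replicate block, Gjc1 (1.02, adjusted p = 0.0519) and Cdh5 (−1.36, adjusted p = 0.0930) were not called. The replicate numbers share no stated animal. Same-numbered libraries deviated together by correlations of −0.14 to 0.09, with the best match at the same number in 2 of 6 cases. These correlations cannot decide whether the block is a pairing, because the split among GFPtotal libraries on the first principal component could mask a shared animal.

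The 5 partner lists had 1, 2, 13, 8 and 12 genes tested, in the order described above. Over these lists 6 members were higher and 3 lower, beside shares of 4.55% and 0.854% over all genes tested. DESeq2 gave 11 higher, the replicate block 1 lower, and leaving out GFPtotal 3, 4 and 5 gave 3 and 0. With the replicate block, Ubqln4 (edgeR adjusted p = 0.0802), Celsr3 (0.0749), Pcdh19 (0.0562) and Pcdh7 (0.0980) were not called. Cdh1 turned negative with limma-voom (−0.060), with the replicate block (−0.14) and without GFPtotal 3, 4 and 5 (−1.42), and was −0.10 to 0.38 with single libraries left out.

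For marker sums, the log2 ratio with single libraries left out was 0.36 to 0.56 for endothelial, 0.51 to 0.72 for fibroblast, −0.55 to 0.49 for epithelial, −0.42 to 0.23 for leukocyte and −0.26 to 0.65 for Schwann markers. The epithelial ratio was −1.48 without GFPtotal 3, 4 and 5, and the mesothelial one −0.56 with total library size only (exact p = 0.0541). Genes of a few counts per library, such as Gja5 and Cdh4, allow no statement on a difference at this depth.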

Other observations

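Several genes of the cadherin superfamily differed between GFPtotal 3, 4 and 5 and the other GFPtotal libraries; the 7 given here were chosen after their values were seen, and no test of that split was made. Pcdh9, a protocadherin of the nervous system, stood at 92.4 to 117 CPM in GFPtotal 3, 4 and 5, against 4.49 to 15.2 CPM in libraries GFPtotal 1, 2 and 6, with 1.86 to 14.0 CPM in GFPlow. Fat3 stood at 17.1 to 41.5 CPM in the first 3, at 1.62 to 9.67 CPM in the other GFPtotal libraries and at 0.126 to 4.66 CPM in GFPlow. Fat4 stood at 51.0 to 63.7, 5.52 to 12.7 and 0.396 to 6.07 CPM in the same order. Dchs2, which encodes a relative of the Fat4 ligand, stood at 16.6 to 20.9, 0.0773 to 1.78 and 0 to 1.45 CPM. Cdh2 also stood highest in GFPtotal 3, 4 and 5. Cdh6 stood at 3.44 to 7.78 CPM in GFPtotal 3, 4 and 5 and at 0 CPM in GFPtotal 1, 2 and 6, but GFPlow 1, at 5.44 CPM, lay within the range of the first 3.

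Pcdh11x, an X-linked protocadherin, ran the other way. It stood at 0.333 to 2.33 CPM in GFPtotal 3, 4 and 5, against 17.1 to 19.4 CPM in libraries GFPtotal 1, 2 and 6, with 11.5 to 95.1 CPM in GFPlow (log2 fold change of GFPtotal over GFPlow −1.77, adjusted p = 0.309).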
